A study of Mus musculus with 20 samples.

Results

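Gene expression in the liver of control mice was set against a universal mouse reference RNA on 5 arrays, which are those labelled 0 mg/kg BaP among the 20 arrays of the series. The animals were male Muta™Mouse, a strain that carries a lacZ reporter transgene and that the labels call transgenic mouse strain 40.6. They were 25 weeks of age, received olive oil by daily gavage and were killed 3 days after the last dose, so that untreated means given the vehicle. The other 15 arrays came from animals of the same strain, sex and age that received BaP (benzo[a]pyrene, a polycyclic aromatic hydrocarbon) in olive oil at 25, 50 or 75 mg/kg/day, 5 animals at each dose, and they are used here only beside the control values. On every array the liver RNA of 1 animal carried the red dye Cy5 and the reference, total RNA pooled from 11 mouse cell lines, carried the green dye Cy3. The dyes were not exchanged on any array, so that a dye effect and a difference between the RNAs cannot be told apart, and the reference is 1 pool whose own spread does not enter any test. The labels name lungs in one field and liver in another, and the marker genes described below bear on that.

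The values are log2 ratios of liver over reference, in which 1 unit is a 2-fold difference and 0 is the centre of an array after normalization. They show which transcripts stood high or low in liver relative to those cell lines, not how many copies a cell held, and the ratios of different probes were not compared as levels. In whole tissue, fewer cells of a type and less RNA per cell cannot be told apart. A probe counted as present when its spot exceeded the negative control spots in either channel on at least 4 of the 5 arrays, and 28537 of 41174 probes were present. The scanner software marked 51.9% to 67.5% of liver spots and 60.2% to 72.0% of reference spots as well above background, with control 4 the highest in both. No spot was saturated (0 spots), and the ratios of any 2 control arrays correlated across probes at r between 0.931 and 0.977, which describes likeness across genes and not across independent samples. The 5 animals limit the precision of every value, and controls 2 and 3 shared slide 6 while the others lay on slides of their own.

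Hepatocytes, the main cells of the liver, secrete most proteins of the blood plasma, clear drugs and steroids through cytochrome P450 and conjugating enzymes, turn ammonia into urea, store and release glucose, burn fatty acids and make bile acids. In the healthy adult they rarely divide. Kupffer cells are the resident macrophages, sinusoidal endothelial cells line the leaky capillaries, stellate cells store vitamin A, and bile duct cells form the bile drainage. Cultured cell lines divide continuously, spread on plastic with a rich cytoskeleton and often secrete matrix, and a pool of their RNA is a usual common reference for two-colour arrays.

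Liver and reference differed over a large part of the array. In limma's test of the mean ratio against 0, where a call needed a fold above 2 as well as a Benjamini-Hochberg adjusted p below 0.05, 4320 probes were higher in liver (15.1% of those present) and 3918 were lower (13.7%). At the level of genes, where the brightest present probe stands for each of 13353 genes, 2425 were higher (18.2%) and 2491 lower (18.7%). The sides were unequal in the size of the difference. Beyond 16-fold, 479 genes were higher (3.59%) and 48 lower (0.359%), and beyond 64-fold 109 were higher and 1 was lower. The liver channel was the dimmer, at 1.31 to 1.68 times background in the median spot against 2.18 to 4.19 for the reference. Where liver was well above background on none of the 5 arrays, the largest bound was 13.1-fold (*Cep55*), under the 16-fold mark. Where the reference was so, it was 71.5-fold (*Sult1d1*). The part of that floor in the unequal counts was not tested. Of the 4916 called genes, 4897 lay on the same side of 0 in all 5 animals. The values of the same 5 animals made the calls, so that agreement is no separate support for them. The 15 exposed arrays, which share the reference and the dyes, had 97.8% of the higher probes and 97.5% of the lower probes on the same side on every array. The split between higher and lower changed with the way the ratios were normalized. Of the calls, 52.4% were higher by loess and 46.4% in the authors' deposited log2 ratios, which were normalized by LOWESS. That share was 40.8% in the scanner software's processed signals, 28.5% when each array was centred on its median and 32.8% without normalization. The median over all probes was -0.04, -0.11, -0.28, -0.28 and -0.18 in that order.

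The transcripts that stood highest in liver encode enzymes and secreted proteins of the hepatocyte. *Rgn*, which encodes the calcium-binding regucalcin, led with 10.30, 9.63, 9.40, 9.20 and 9.47 in controls 1 to 5 and a mean log2 ratio of 9.60 ± 0.42 (SD, n = 5; 776-fold; limma adjusted p = 1.85e-09). All 5 values lay more than 9 units above 0, with control 1 the highest and control 4 the lowest. *Akr1c6*, an aldo-keto reductase that acts on steroids, had 10.03, 9.43, 9.76, 9.11 and 9.38 and a mean of 9.54 ± 0.36. *Aadac*, an esterase of the endoplasmic reticulum, had a mean of 8.95 ± 0.47. *Mup5*, one of the major urinary proteins that carry pheromones, had 8.95 ± 0.46, and it belongs to a family of near-identical genes whose transcripts one probe may not tell apart. Secreted proteins followed with *Cfi* (8.79 ± 0.46) and *C4bp* (8.63 ± 0.27), which restrain complement, *Apoh* (8.34 ± 0.64), which binds phospholipids in plasma, and *Ambp* (7.99 ± 0.59), the precursor of an inhibitor of serine proteases. *Aass*, which begins the breakdown of lysine, had 8.02 ± 0.29, the urea cycle enzyme *Otc* had 8.00 ± 0.29 (5.53 ± 0.32 by a dimmer probe) and the glucuronosyltransferase *Ugt2a3* had 7.89 ± 0.44. The plot of the highest and lowest genes shows control 1 on the right in each of the highest genes and control 4 on the left in most of them.

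**Figure D1:**
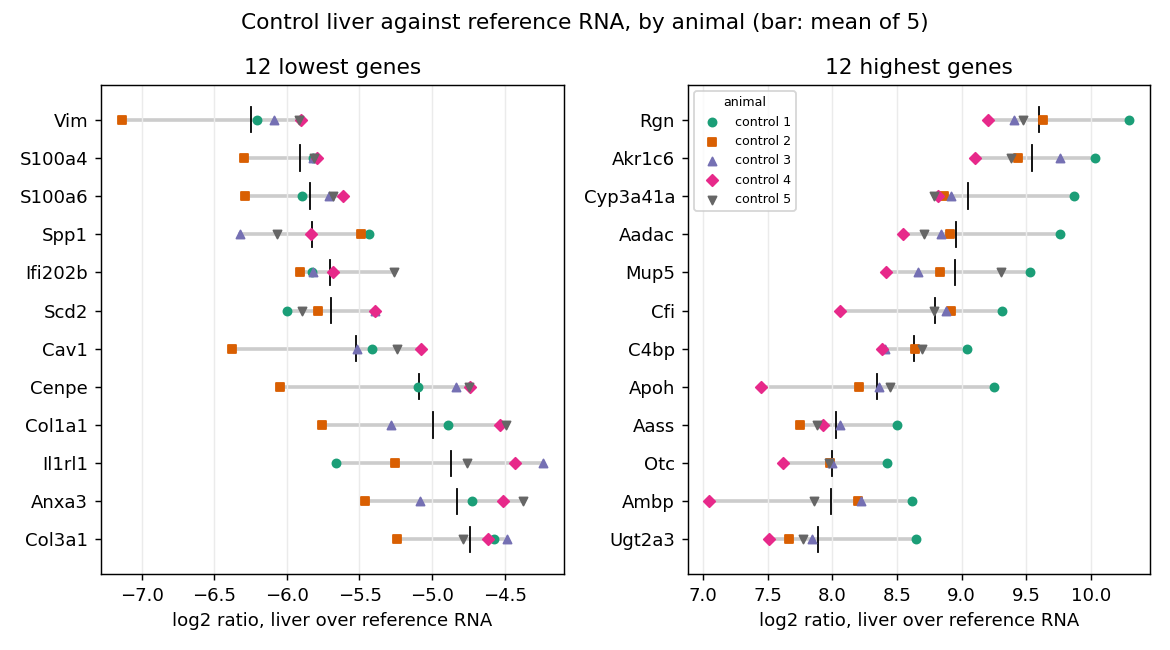
Log2 ratio of liver over reference RNA (x axis) in each of the 5 control animals for the 12 lowest genes (left) and the 12 highest genes (right) among those called and well above background in both channels on all 5 arrays, with a bar at the mean of the 5. The highest genes run from a mean of 7.89 (*Ugt2a3*) to 9.60 (*Rgn*) with control 1 at the upper end of each, and the lowest from -6.25 (*Vim*) to -4.74 (*Col3a1*).

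Transcripts at the other end encode structural, calcium-binding and matrix proteins and a kinesin of mitosis. *Vim*, the intermediate filament of mesenchymal cells, had -6.21, -7.14, -6.09, -5.90 and -5.92 in controls 1 to 5 and a mean of -6.25 ± 0.51 (76.1-fold lower; adjusted p = 1.07e-08). Control 2 stood below the other 4 animals, which lay within 0.31 of each other. The small calcium-binding proteins *S100a4* (-5.91 ± 0.22) and *S100a6* (-5.84 ± 0.27) came next. *Spp1*, the secreted phosphoprotein osteopontin, had -5.83 ± 0.38, and *Scd2*, a stearoyl-CoA desaturase used outside the liver, had -5.69 ± 0.29, where its liver relative *Scd1* was higher (3.26 ± 0.76). *Cav1*, the coat protein of caveolae, had -5.52 ± 0.51, the kinetochore motor *Cenpe* -5.09 ± 0.55, and the fibrillar collagens *Col1a1* and *Col3a1* -4.99 ± 0.54 and -4.74 ± 0.30. *Ifi202b*, an interferon-inducible sensor of DNA, was at -5.70 ± 0.26, the interleukin receptor *Il1rl1* at -4.87 ± 0.59 and the annexin *Anxa3* at -4.83 ± 0.44. Other probes of the same gene, all dimmer, gave ratios closer to 0. The mean was -2.38 and -0.59 for the other probes of *Col1a1* and -1.82 for that of *Cav1*.

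For some probes only one of the RNAs gave a signal well above background, and the ratio is then a bound. The brightest probe of 56 genes called higher had its reference channel well above background on 0 of 5 arrays. For 89 genes called lower the same held for the liver channel. These counts set no condition on the other channel. *Sult1d1*, a sulfotransferase, was at least 71.5-fold higher in liver, *Slc16a12*, a creatine transporter, at least 18.7-fold, and *Akr1d1*, the steroid reductase of bile acid synthesis, at least 8.80-fold. The same group held *Nxpe2* (at least 9.73-fold), *Adamdec1* (7.70) and *Olfm3* (10.9), of which a dimmer probe, also without reference signal, had a log2 ratio of 1.36. In the other direction *Cep55*, which acts in the final cut between daughter cells, was at least 13.1-fold lower in liver, *Gxylt2* 6.55, *Bnc1* 5.72 and the transcription factor *Foxc2* 5.17. On this side the bounds equal the folds of the mean ratios. Single animals lay nearer to 0, as *Foxc2* did in control 5 at a log2 ratio of -1.81. Other probes of the same gene were closer to 0 for *Trim59* (at least 9.96-fold lower, with the other probe at a log2 ratio of -1.97), the guidance cue *Sema3a* (5.80, and -2.06) and the neuronal RNA-binding *Elavl2* (7.23, and -0.43, which was not called). *Acot4*, an acyl-CoA thioesterase of peroxisomes, has no bound as a gene, since its probes were at 3.49, without reference signal, and at 1.27, with the reference above background on 3 of 5 arrays. The same was true of the placental hormone gene *Prl2c3*, whose probes were at -2.93, -2.27 and -0.28 with liver above background on 0, 1 and 0 of 5 arrays.

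Genes of hepatocyte functions were higher almost throughout. Of 131 genes tested on 7 lists of hepatocyte functions, 129 were called higher and 0 lower, where 18.2% of all genes were higher. The lists were chosen with earlier results of these data known. The 2 not called were *Cyp2c38* (0.25 ± 0.21) and *Cyp39a1* (0.78 ± 0.55).

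All 31 plasma proteins tested were higher, with a median log2 ratio of 5.58 where the median over all genes was -0.07. Besides *Apoh* and *Ambp* the largest were the fibrinogen chain *Fgg* (7.22 ± 0.76) and the thrombin inhibitor *Serpinc1* (6.98 ± 0.51). The smallest was *Ahsg*, the fetuin-A of plasma, at 3.56 ± 0.72. *Alb*, named here after its values were seen because it encodes the most abundant plasma protein, was among the smaller with 4.37, 3.81, 3.80, 2.53 and 3.89 and a mean of 3.68 ± 0.69. Control 4 had the lowest ratio and control 1 the highest.

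Of 17 drug-metabolising cytochrome P450 enzymes 16 were higher (median 5.57), led by *Cyp3a25* (7.12 ± 0.46) and *Cyp2c23* (6.63 ± 0.64). The conjugation list holds enzymes that attach glucuronic acid, sulfate, glutathione, amino acids or methyl groups, and also an epoxide hydrolase. Its genes were higher in 20 of 20 cases (median 5.26). *Ugt2b5* (7.57 ± 0.37), the epoxide hydrolase *Ephx2* (7.45 ± 0.39) and *Ugt2b38* (7.23 ± 0.29) were large, and *Nnmt*, which methylates nicotinamide, was the smallest and the most spread of that list at 1.34 ± 0.94.

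The urea cycle and amino acid breakdown list was higher in 19 of 19 genes (median 5.24). *Agxt*, which clears glyoxylate, had 6.03 ± 0.66, the homogentisate dioxygenase *Hgd* had 5.86 ± 0.32, and *Fah*, the last enzyme of tyrosine breakdown, was the smallest at 2.68 ± 0.20. Glucose and glycogen genes were higher in 11 of 11 cases (median 3.86). The glucose transporter *Slc2a2* led at 6.85 ± 0.44, ahead of the gluconeogenic *Fbp1* (6.76 ± 0.60) and the glycogen synthase *Gys2* (6.09 ± 0.56), with the pyruvate kinase *Pklr* the smallest (2.70 ± 0.32).

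Bile acid genes were higher in 14 of 15 cases (median 4.67). *Baat*, which joins bile acids to taurine or glycine, had 6.94 ± 0.34, the canalicular bile salt pump *Abcb11* 6.53 ± 0.87 and *Cyp7b1*, of the alternative synthesis route, 6.23 ± 0.65. Fatty acid oxidation and ketone synthesis genes were higher in 18 of 18 cases (median 3.91). The fatty acid carrier *Fabp1* led at 7.53 ± 0.63, and *Hadha*, a subunit of the mitochondrial trifunctional protein found in most tissues, was the smallest at 1.08 ± 0.35. *Cyp4a14*, an omega-hydroxylase of fatty acids, had 4.84 ± 1.39 and the largest spread of that list.

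Sterol and fatty acid synthesis, which cell lines also carry out, stood nearer to 0. Of 26 genes 19 were higher and 7 were not called (median 1.42), where 18.2% of all genes were higher. The largest were *Thrsp*, a lipogenic protein of liver and fat (4.79 ± 0.48), and the desaturating *Sc5d* (4.17 ± 0.28). The sterol regulator *Srebf2* was the lowest at -0.29 ± 0.24.

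The transcription factors that establish and hold hepatocyte identity were also high. Of 21 tested, 18 were higher (median 4.02), where 18.2% of all genes were. The median SD of the list was 0.25 where that of the plasma proteins was 0.52. *Klf15*, a factor of fasting metabolism, had 5.52 ± 0.34, *Foxa2* 5.48 ± 0.23 and *Hnf4a* 5.33 ± 0.25. *Cebpb*, which many cell types express, lay at 0.02 ± 0.23 and was not called, and neither were *Prox1* (0.75 ± 0.29) and *Esrra* (0.40 ± 0.11). These 2 were singled out after their values were seen.

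**Figure D2:**
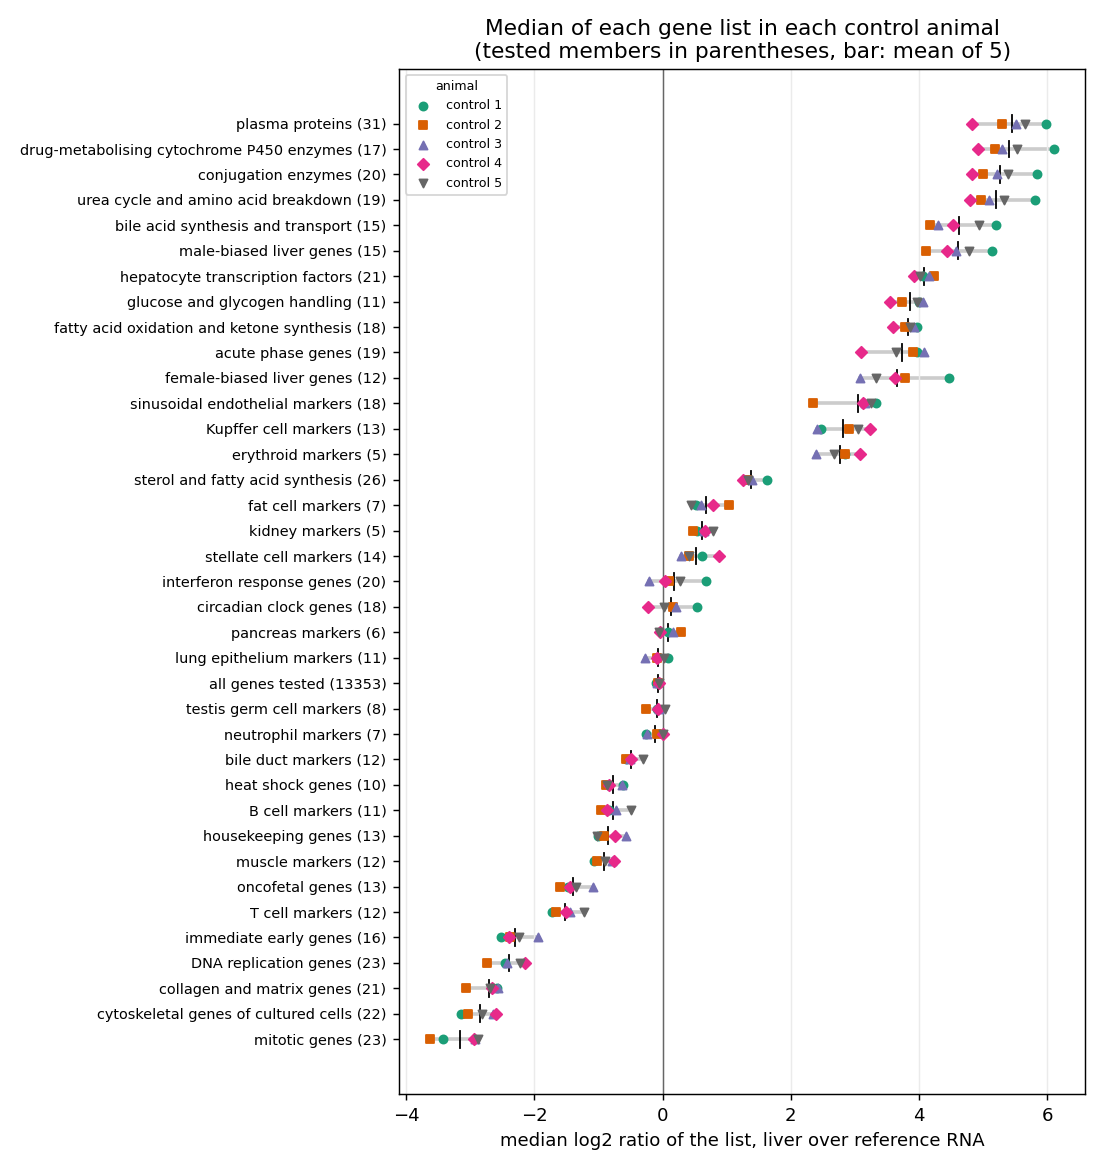
Median log2 ratio of liver over reference RNA (x axis) of the tested members of each gene list in each of the 5 control animals, with the number of members in parentheses and a bar at the mean of the 5 medians. The lists of hepatocyte functions lie between 3.54 and 6.11 in every animal, the mitotic genes between -3.62 and -2.87, and all genes tested near 0.

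Genes of dividing cells were low almost throughout. Of 46 mitotic and DNA replication genes, 44 were called lower and 1 higher, where 18.7% of all genes were lower. These lists too were chosen with earlier results of these data known. All 23 mitotic genes tested were lower (median -3.07). After *Cenpe* the largest were *Nusap1*, which bundles spindle microtubules (-4.36 ± 0.19), the cyclin *Ccnb1* (-4.17 ± 0.24) and the checkpoint kinase *Bub1* (-4.11 ± 0.40), and the kinase *Ttk* was nearest to 0 (-1.29 ± 0.17), with liver well above background on 1 of 5 arrays. The replication list had 21 of 23 genes lower (median -2.35), led by the helicase subunits *Mcm6* (-4.17 ± 0.38) and *Mcm4* (-3.66 ± 0.19) and the licensing factor *Cdt1* (-3.29 ± 0.23). *Mcm10*, which helps to activate the helicase, was the exception at 2.33 ± 0.20 in the opposite direction, and *Tk1* was not called (-0.59 ± 0.36).

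Promoters of 4 of these genes are shown because the hepatocyte and cycling groups sat at opposite ends, and elements known from such genes were marked in them. For each group the promoters shown are those of the largest differences whose window held one of the group's elements (HNF4 or C/EBP, and CHR or E2F). Promoters of a chromosome that was left out of this choice could not be shown. The sequences come from RefSeq on build GRCm38.p6, from 250 bases before to 50 after the start, read 5′ to 3′ on the strand of the gene. Capitals mark the matches, which are the TATA box (TATAAA) and HNF4 (CAAAGTCCA) in the first 2, and the CCAAT box (CCAAT) and the cell cycle homology region CHR (TTTGAA) in the last 2, on either strand. *Cyp2c40* (chr19:39812765-39813064, minus strand) and *Cyp2c70* (chr19:40187237-40187536, minus strand) had mean log2 ratios of 5.92 and 5.88. *Prc1* (chr7:80294201-80294500, plus strand), which organises the spindle midzone, and *Ube2c* (chr2:164769679-164769978, plus strand), which tags cyclins for destruction, had -3.81 and -3.37.
Cyp2c40: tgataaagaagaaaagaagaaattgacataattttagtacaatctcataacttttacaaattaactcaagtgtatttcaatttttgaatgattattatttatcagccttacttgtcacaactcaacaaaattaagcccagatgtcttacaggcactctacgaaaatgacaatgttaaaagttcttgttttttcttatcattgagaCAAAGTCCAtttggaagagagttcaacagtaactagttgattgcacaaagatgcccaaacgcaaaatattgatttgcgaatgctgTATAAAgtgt
Cyp2c70: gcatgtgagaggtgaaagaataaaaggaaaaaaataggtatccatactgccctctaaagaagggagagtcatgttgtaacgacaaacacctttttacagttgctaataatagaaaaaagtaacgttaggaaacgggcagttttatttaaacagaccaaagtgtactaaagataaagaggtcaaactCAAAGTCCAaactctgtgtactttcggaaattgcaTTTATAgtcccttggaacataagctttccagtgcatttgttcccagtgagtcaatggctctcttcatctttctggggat
Prc1: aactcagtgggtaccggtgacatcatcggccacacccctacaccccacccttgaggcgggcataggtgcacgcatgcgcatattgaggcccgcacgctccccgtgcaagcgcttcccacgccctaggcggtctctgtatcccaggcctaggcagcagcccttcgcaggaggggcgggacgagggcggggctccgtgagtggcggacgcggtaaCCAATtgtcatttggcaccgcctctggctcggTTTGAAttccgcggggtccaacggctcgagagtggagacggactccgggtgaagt
Ube2c: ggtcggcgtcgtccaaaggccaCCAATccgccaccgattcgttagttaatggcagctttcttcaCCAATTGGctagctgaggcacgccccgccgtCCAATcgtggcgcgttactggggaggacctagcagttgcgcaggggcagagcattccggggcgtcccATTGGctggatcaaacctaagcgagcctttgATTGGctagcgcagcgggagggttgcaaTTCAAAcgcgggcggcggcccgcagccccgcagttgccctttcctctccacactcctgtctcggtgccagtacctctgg

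Counted from the first transcribed base as 1, the HNF4 match lay at -45 to -37 in *Cyp2c40* and at -64 to -56 in *Cyp2c70*, where a TATA box on the other strand lay at -29 to -24. The TATA match of *Cyp2c40* lay after the start, at 41 to 46. In *Prc1*, the first of whose 2 promoters is shown, a CCAAT box lay at -37 to -33 and the CHR at -5 to 1. In *Ube2c* 6 CCAAT boxes, of which 1 pair overlapped, preceded a CHR at -29 to -24. Over the groups, the 450 promoters of genes higher by more than 16-fold (361 of 479 genes matched) held HNF4 in 4% of cases where all 32851 promoters did in 0.475% and the 13576 promoters of tested genes in 0.53%. FOXA (TGTTTAC) was in 6.89% of them against 3.65% of all and 2.73% of tested genes, and the TATA box in 20% against 13.6% and 9.23%, but the promoters of genes lower by more than 16-fold held these in 6% and 18%. The C/EBP palindrome (TTGCGCAA) was in 1 of the 450 promoters (0.222%), against 0.183% of all and 0.295% of tested genes. Among the 50 promoters of genes lower by more than 16-fold (39 of 48 genes matched) HNF4 was in 0, and the CCAAT box was in 50% against 37.4% of all and 37.6% of tested genes. E2F (TTTCCCGC) was in 2% against 1.07% and 1.73%. CHR was in 16% against 17.9% and 12.9%, and in 17.6% of the promoters of genes higher by more than 16-fold. All motifs were sought on both strands. The matches are a description of letters in these windows and do not show that a factor binds.

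**Figure D3:**
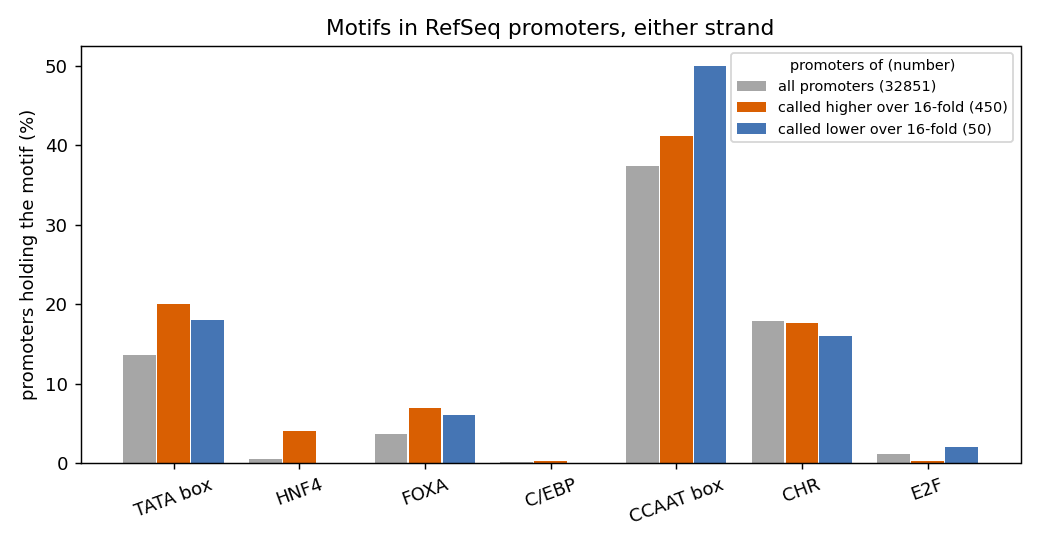
Share of RefSeq promoters that hold a motif on either strand (y axis, percent) among all promoters, promoters of genes higher in control liver by more than 16-fold and promoters of genes lower by more than 16-fold. HNF4 stands at 4% in the higher genes against 0.475% of all promoters, while the TATA box stands at 20% in the higher and 18% in the lower genes.

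Matrix and cytoskeleton lay with the cycling genes. Of 21 collagen and matrix genes 19 were lower and 1 higher (median -2.77), with the collagen chaperone *Serpinh1* (-4.58 ± 0.53) and the crosslinking *Lox* (-4.53 ± 0.25) after the collagens. *Lum*, a small proteoglycan, was higher in liver at 1.81 ± 0.87. Of 22 cytoskeletal genes 20 were lower and 1 higher (median -2.81). *Vim*, the S100 proteins and *Anxa3* were the lowest, while the actin-binding *Cald1* was higher (1.36 ± 0.86). Immediate early genes, which respond within minutes to growth signals and handling, were lower in 15 of 16 cases (median -2.24). *Fos* was the lowest with -4.27, -4.37, -4.23, -4.59 and -4.19 and liver well above background on 2 of 5 arrays, followed by *Myc* (-3.59 ± 0.33), *Nr4a1* (-3.57 ± 0.24) and *Ier3* (-3.25 ± 0.28), and *Zfp36* was not called (-0.24 ± 0.44). Of 10 heat shock genes 4 were lower, where 18.7% of all genes were, and 6 were not called (median -0.82). They ran from *Hsp90aa1* (-1.82 ± 0.79) to *Hspb1* (0.78 ± 0.70).

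Oncofetal genes, which fetal liver and many tumour lines express, were lower in 7 of 13 cases and higher in 0, with *Hmga1* lowest (-3.76 ± 0.20). Over all genes 18.2% were higher and 18.7% lower. Genes often used as constant controls were not constant between the RNAs. Of 13 housekeeping genes 2 were higher, 7 lower and 4 not called, from the mitochondrial *Sdha* (1.44 ± 0.52) to the glycolytic *Pgk1* (-2.56 ± 0.15). The median of that list was -1.14, and it stayed below 0 under each of the other ways of scaling tried, at -1.63 to -1.14.

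Markers of other liver cells were measured as well. Of 13 Kupffer cell markers 10 were higher (median 2.92), led by *Cd5l* (6.01 ± 0.26), an inhibitor of macrophage death, and *Clec4f*, a lectin specific to these cells (4.82 ± 0.10), with *Vsig4* at 3.06 ± 0.39 and *Timd4* at 1.24 ± 0.43. The heme oxygenase *Hmox1* was lower (-1.55 ± 0.18). Sinusoidal endothelial markers were higher in 15 of 18 cases (median 3.15), among them the lectin *Clec4g* (5.81 ± 0.30), the scavenger receptors *Stab1* (2.99 ± 0.27) and *Stab2* (3.32 ± 0.15) and *Lyve1* (1.85 ± 0.73), while *Pecam1*, common to all endothelium, lay at 0.01 ± 0.10. The median of that list was 1.93 when the median over a gene's probes stood for the gene, and 5.10 in the processed signals. Of 14 stellate cell markers 6 were higher and 2 lower, where 18.2% and 18.7% of all genes were, with *Colec11* at 4.81 ± 0.30, *Reln* at 4.05 ± 0.41, the retinol-esterifying *Lrat* at 1.52 ± 0.62 and *Pdgfrb* at -1.84 ± 0.44.

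Of 12 bile duct markers 3 were higher, 4 lower and 5 not called, where 18.2% of all genes were higher and 18.7% lower. *Tff3*, a secreted trefoil peptide, was higher (2.82 ± 0.57) and so was *Pkhd1* (2.06 ± 0.38), while *Epcam* (-3.00 ± 0.31), *Krt19* (-2.78 ± 0.27) and *Spp1* were lower and *Krt7* was not called (-0.89 ± 0.14). Of 5 erythroid markers tested 4 were higher, with *Hba-a1* at 4.63 ± 0.42 and *Alas2* at 4.44 ± 0.31. Where 18.7% of all genes were lower, lymphoid markers were lower in 7 of 12 T cell and 4 of 11 B cell genes and higher in 0, and of 7 neutrophil markers *S100a9* was the 1 that was higher (3.10 ± 0.67). Muscle markers were lower in 4 of 12 cases and higher in 0.

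The tissue label was checked by these lists. Of 17 lung epithelium markers 5 were not present, among them *Sftpb* and *Sftpc*, 1 had no matched probe, 0 of the other 11 were higher and 2 were lower (median -0.08). *Sftpd* was the highest at 0.97 ± 0.52, and *Sftpa1* lay at 0.44 ± 0.11. Pancreas markers had 0 of 6 called (median -0.04), testis germ cell markers 0 of 8 (median -0.11), and kidney markers 1 of 5, the organic anion transporter *Slc22a6* (2.43 ± 0.44). Over all genes 18.2% were higher and 18.7% lower, and counts over so few genes say little by themselves. Of 7 fat cell markers *Car3* (5.74 ± 0.83), which liver also expresses, *Cidec* (1.40 ± 0.26) and *Pnpla2* (1.03 ± 0.11) were higher, and *Adipoq* and *Plin1*, specific to fat, were not called. The medians of the lung, pancreas and testis lists lie near 0 and changed sign without normalization, to 0.13, 0.13 and 0.01, and those of lung and pancreas also when arrays were centred on the median, to 0.02 and 0.02.

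The sex label was checked by genes chosen after their values were seen. The X-inactivation transcript *Xist* was well above background in the liver on 0 of 5 arrays (log2 ratio -1.11 ± 0.20), and the Y-linked *Eif2s3y* (2.84 ± 0.41) and *Ddx3y* (1.62 ± 0.28) were well above background on all 5. Where 18.2% of all genes were higher than the reference, genes known to be higher in male liver were so in 14 of 15 cases (median 4.61). They included the glucuronosyltransferase *Ugt2b38*, the coenzyme A hydrolase *Nudt7* (6.84 ± 0.44), *Cyp7b1*, the fatty acid hydroxylases *Cyp4a12b* (5.81 ± 0.41) and *Cyp4a12a* (5.72 ± 0.56), the anion transporter *Slco1a1* (5.53 ± 0.55), *Hsd3b5* (4.61 ± 0.38) and *Cyp2d9* (3.66 ± 0.44).

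Genes known to be higher in female liver were also higher than the reference, in 8 of 12 cases tested (median 3.72), against 18.2% of all genes. *Cyp3a41a* had 9.87, 8.86, 8.92, 8.81 and 8.78 (mean 9.05 ± 0.46; adjusted p = 2.27e-09), *Cyp3a16* 7.84 ± 0.61, *Cyp2a4* 5.93 ± 0.62, *Cyp3a44* 5.53 ± 0.68, *Cyp2b9* 4.89 ± 0.65 and *Cyp2b13* 3.19 ± 1.04. In *Cyp3a41a*, control 1 stood apart from the other 4. These genes have close relatives that male liver expresses, and how much of their signal came from relatives was not tested. The 4 genes of that list that were not present were *Sult3a1*, *Cux2*, *Hao2* and *Abcd2*. *Moxd1*, of the male list, had 1.82, 2.50, 3.19, -0.14 and 3.02 and control 4 alone below 0.

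Variation between the untreated animals was mostly small beside the difference from the reference. The median SD over present probes was 0.218, and 1732 probes (6.07%) had an SD over 0.5. For 202 present probes printed at several spots, the median SD was 0.0982 between single spots of an array. It was 0.223 between animals, each taken as the mean of its spots. The latter also holds the spread between arrays and slides, which cannot be told apart from that between animals. Genes called higher varied more (median SD 0.307) than genes called lower (0.254) or not called (0.203). On the hepatocyte lists control 1 was the highest animal in 96 of 131 genes and control 4 the lowest in 70, and for plasma proteins the medians ran 5.98, 5.30, 5.51, 4.83 and 5.65 in controls 1 to 5. The same counts over all genes called higher were not made, and genes measured in the same animals are not independent. The median over all genes tested was -0.10 in control 1 and -0.05 in control 4. Control 4 was also the array with the largest share of liver spots well above background. The part of that share in the ratios of the hepatocyte genes was not tested.

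Of 10078 genes well above background in both channels on all 5 arrays, 732 had an SD over 0.5. The values that chose them came from the controls, and the exposed groups were not used in that choice. The exposed arrays share the reference, and most lay on slides that also carried a control. Spread that belongs to the animal, the slide or the probe therefore cannot be told apart. In the exposed groups the same 732 genes had a median SD of 0.388, 0.379 and 0.356 at 25, 50 and 75 mg/kg/day, where all 10078 had 0.211, 0.199 and 0.203. Controls 1, 2 and 3 were the farthest from the mean in 208, 205 and 199 of the 732 genes, and controls 4 and 5 in 63 and 57.

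The largest spread belonged to a group of probes that moved together from array to array. *Klf2*, a zinc finger factor known from endothelium and T cells, had -3.22, 3.10, 5.25, 0.13 and -0.85 in controls 1 to 5 (SD 3.33). *Lars2*, the mitochondrial leucyl-tRNA synthetase, had -2.53, 2.97, 5.92, 1.20 and 0.53 (SD 3.12), and *Grn*, the precursor of the secreted granulins, had -1.82, 2.18, 4.47, 0.82 and 0.50 (SD 2.31). In each, control 1 was lowest and controls 3 and 2 were highest. *Syt10* (SD 2.71), *Pigt* (2.69), *Slc4a7* (2.27), *Rusc1* (2.06), *Ptms* (2.04) and *Cxadr* (1.55) had the same lowest and 2 highest animals, and *Fam110a* (1.49) had the same lowest and highest animal.

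For these probes the slide moved with the values. Over all 20 arrays *Klf2* lay between -3.22 and 0.82 on slides 1 to 3 (12 arrays) and between 1.66 and 6.13 on slides 4 to 6 (8 arrays), with no overlap, and the groups of slides were formed after the values were seen. The other probes of the group had higher medians on slides 4 to 6 but overlapped, as *Lars2* did with -2.53 to 2.64 against 1.37 to 6.39 and *Grn* with -1.82 to 2.32 against 1.00 to 5.49. Within slide 6, controls 2 and 3 had 3.10 and 5.25 and the exposed arrays reached from 1.66 to 5.04. The reference signal over background was 3.31 to 4.65 on slides 1 to 3 and 2.14 to 2.70 on slides 4 to 6. A second, dimmer probe of *Klf2* had an SD of 0.32, and the second probes of *Grn* (0.34), *Pigt* (0.12), *Rusc1* (0.18) and *Ptms* (0.67) were also less spread than the first, as were the 2 dimmer probes of *Cxadr* (0.36 and 0.19). The brightest probe of *Slc4a7* had a mean of 0.90 ± 2.27 and was not called, while its 2 dimmer probes, at -1.15 ± 0.26 and -1.72 ± 0.33, were called lower. The part of the slide and of the reference signal in these values was not tested.

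**Figure D4:**
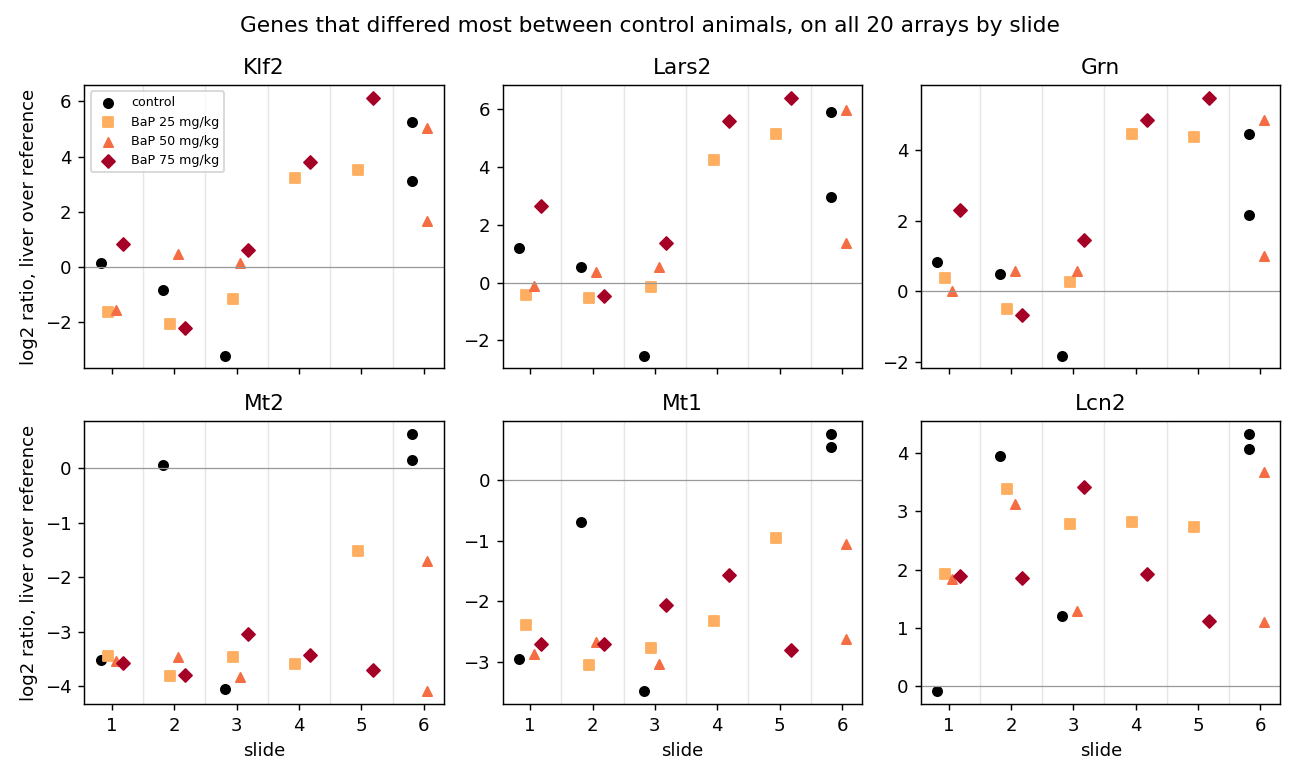
Log2 ratio of liver over reference RNA (y axis) for 6 of the genes that differed most between control animals, on all 20 arrays by slide (x axis), with controls as black circles and the BaP groups as coloured symbols. *Klf2* lies between 1.66 and 6.13 on slides 4 to 6 and between -3.22 and 0.82 on the others, and *Lars2* and *Grn* have medians of 5.35 and 4.47 there against 0.12 and 0.44, whereas *Mt2* lies near 0 in 3 controls and between -4.09 and -1.52 on the exposed arrays.

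The metallothioneins varied in another way. *Mt2*, a zinc-binding protein induced by metals, glucocorticoids and inflammation, had -4.05, 0.16, 0.64, -3.52 and 0.06 in controls 1 to 5 (SD 2.25), and *Mt1* had -3.48, 0.54, 0.76, -2.94 and -0.68 (SD 1.96). Both were higher in controls 2, 3 and 5 than in controls 1 and 4, and neither passed the test against the reference (adjusted p = 0.117 and 0.121). On the 15 exposed arrays *Mt2* had a lowest value of -4.09, a median of -3.55 and a highest of -1.52, so the 3 high controls stood above every exposed array. *Lcn2*, the iron-binding lipocalin of the acute phase, had 1.20, 4.34, 4.08, -0.09 and 3.95 (SD 2.01), again with controls 2, 3 and 5 high. It ran from 1.10 to 3.68 on the exposed arrays, below those 3 controls. Controls 2 and 3 shared slide 6, where the exposed arrays had -1.71 and -4.09 for *Mt2*, and control 5 lay on slide 2, where they had -3.81, -3.46 and -3.79.

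The list of acute phase genes, *Mt2* and *Lcn2* among them, had a median SD of 0.46, and 8 of its genes had an SD over 0.5. Such an SD was found in 6.07% of present probes. Plasma proteins had a median SD of 0.52 with 19 of 31 genes over 0.5, so that this spread was not particular to the acute phase list. Of the 19 tested 15 were higher than the reference, 1 was lower and 3 were not called (median 3.72). Over all genes 18.2% were higher and 18.7% lower. *Orm1* had 7.14, 7.09, 7.24, 6.19 and 6.73, and *Orm2* 6.39 ± 0.41. *Saa3*, the serum amyloid A made also by macrophages, had 3.69, 4.69, 5.32, 2.77 and 5.04, with the same 3 animals high as for *Lcn2*, but its named relatives *Saa1* (3.94 ± 0.53) and *Saa2* (3.72 ± 0.35) did not part these animals. *Saa3*, *Saa1* and *Saa2* were picked after their values were seen. *Derl3*, an endoplasmic reticulum protein of the unfolded protein response, had -1.26, 2.64, 0.53, 0.89 and 2.71 (SD 1.65) and *Wfdc12*, a small secreted protein, had 0.56, 2.24, 0.56, 1.28 and 4.67 (SD 1.72). For both, control 5 was the highest.

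Some genes of the circadian clock differed between the animals in opposite directions. The core clock pairs the activators *Arntl* and *Clock* with repressors and output factors that peak at another time of day. *Dbp*, an output factor, had -0.26, 0.90, 0.73, -1.96 and -1.54 in controls 1 to 5 (SD 1.29), and *Nr1d1*, which represses *Arntl*, had 1.27, 2.22, 1.82, -0.17 and 0.48 (SD 0.97). *Tef*, a relative of *Dbp*, had 0.65, 1.11, 1.36, -0.30 and -0.28. In all 3, controls 2 and 3 were highest and controls 4 and 5 lowest. *Arntl* ran the other way with 1.33, -0.18, 0.09, 1.47 and 1.20, as did *Clock* with 1.22, 0.03, 0.31, 0.80 and 0.88 and *Nfil3*, which opposes *Dbp*, with 1.28, 0.66, 0.82, 1.82 and 1.96.

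Of 18 clock genes tested, 4 were higher than the reference, 1 was lower and 13 were not called, where 18.2% of all genes were higher and 18.7% lower. The higher genes included *Hlf* (2.81 ± 0.28), *Nfil3* (1.31 ± 0.58) and *Nr1d1* (1.12 ± 0.97), and the lower was *Per1* (-1.71 ± 0.52). The median SD of the list was 0.36, and 7 of the 18 genes had an SD over 0.5. Such an SD was found in 6.07% of present probes, and in 7 of 15 bile acid genes. How many of its other genes part the animals in the same way was not counted. The median ratio of the list, 0.23, fell to -0.28 when arrays were centred on the median and to -0.17 without normalization. Controls 2 and 3 shared a slide, while controls 1, 4 and 5 did not, and the part of the slide in these values was not tested.

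**Figure D5:**
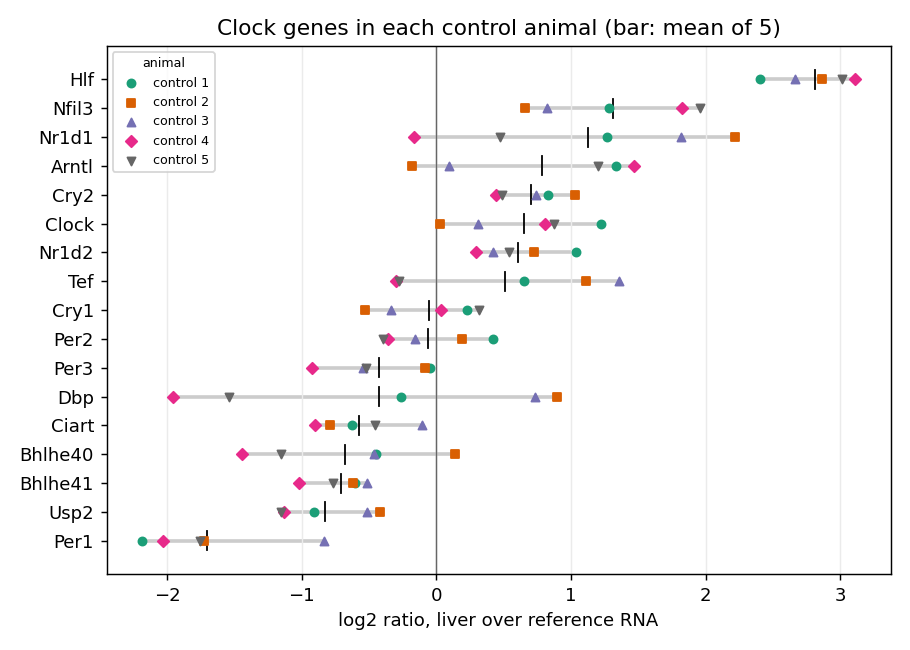
Log2 ratio of liver over reference RNA (x axis) of 17 of the 18 clock genes tested in each of the 5 control animals, ordered by their mean (bar). *Dbp*, *Nr1d1* and *Tef* are highest in controls 2 and 3 and lowest in controls 4 and 5, and *Arntl*, *Clock* and *Nfil3* are lowest in controls 2 and 3.

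Of 20 interferon response genes 5 were higher, 3 lower and 12 not called (median 0.12), close to the 18.2% and 18.7% over all genes. That median was below 0, at -0.46 to -0.04, with arrays centred on the median, without normalization, in the processed signals and in the authors' ratios. The GTPases *Iigp1* (6.43 ± 0.26), *Irgm2* (3.10 ± 0.24) and *Igtp* (2.08 ± 0.43) were the largest, and the antiviral *Oasl2* the lowest (-1.64 ± 0.51). *Usp18*, which removes ISG15 from proteins, had -0.44, -2.11, -2.26, -1.51 and -1.04, and the list's median in controls 1 to 5 was 0.67, 0.09, -0.21, 0.03 and 0.28, with control 1 the highest in both and control 3 the lowest.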

How the data were processed

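Liver RNA of 20 mice was measured against a common reference RNA on two-colour Agilent arrays, and 5 control arrays were analysed. The deposited intensities (median spot and local background brightness in each channel) were extracted by the authors with Feature Extraction 10.1.1.1, per the file headers, without normalization. The deposited processed intensities are that software's own, after background subtraction and a dye normalization. The authors' deposited log2 ratios, normalized by LOWESS, served as an alternative. Intensities were corrected by normexp (offset 50) and loess within arrays, outlier spots were left out and spots of a probe averaged (R 4.3.3, limma 3.58.1). Presence required a signal over the trimmed mean (5%) plus 3 trimmed SDs of 153 negative control spots. Calls were made by limma on the mean ratio against 0, with Benjamini-Hochberg adjustment over all present probes, and the test was tried on simulated data. Symbols came through RefSeq accessions (18922 of 28537 present probes). Errors are SDs over animals, and p-values measure only the spread between them. The study left out 1 unnamed sample, and none was left out here. Named were the 12 highest and 12 lowest genes, the 8 largest bounds each way, the 15 largest SDs, the extremes of each gene list with up to 3 more, the first 3 cell type markers, and sex-biased or clock genes. Other genes complete a count or were chosen for their promoters, or the text says that they were picked after their values were seen. Some genes that the rule names are not reported here. The members and lists were chosen with earlier results of these data known. Alternatives were other background corrections, scalings and presence rules, all 20 arrays in 1 model, slide as a random block and leaving out each control. Motifs were sought with Python 3.11.15 and figures drawn with matplotlib 3.10.9.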

Additional observations from a re-analysis of the deposited data

Results flagged for a closer look

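Of 95 sets of 5 control values examined (named genes, list medians and array measures), 9 held an animal whose gap to its nearest neighbour was more than 0.71 of the range, and chance gives about 1 such set in 20. Control 1 stood above the others for *Cyp3a41a* (9.87, the others 8.78 to 8.92) and for *Ugt2a3* (8.65, the others 7.51 to 7.84). Control 2 stood below the others for *Vim* (-7.14, the others -6.21 to -5.90), *S100a4* (-6.30, the others -5.82 to -5.79) and *Cenpe* (-6.05, the others -5.10 to -4.74). The same animal had the lowest medians of the collagen and matrix genes (-3.07, the others -2.70 to -2.56) and of the sinusoidal endothelial markers (2.35, the others 3.13 to 3.33). Control 3 had the lowest ratio of *Nxpe2* (2.38, the others 3.51 to 3.80), whose reference channel was not well above background on any control array. Control 4 had 67.5% of liver spots well above background, where the others had 51.9% to 54.3%.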

How the results depend on the processing

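The count of higher probes, 4320, was 2872 with median centring in place of loess and 2037 at a 4-fold threshold. The count of lower probes, 3918, was 8847 with the scanner software's processed signals, 7209 with median centring, 6417 without normalization within arrays and 1169 at a 4-fold threshold. The median SD of present probes, 0.218, was 0.392 with the processed signals, and the number of present probes with an SD over 0.5 between control animals, 1732, was 10037 with the processed signals and 3062 without normalization. Leaving out each control gave 4291 to 4383 higher probes, 3843 to 4000 lower probes, a median SD of 0.205 to 0.221 and 1576 to 2169 probes with an SD over 0.5. Of the alternative values of these quantities 9 moved by more than 1.5 times and 49 did not, the fits of all 20 arrays and of slide as a random block among them. The median log2 ratio of testis germ cell markers turned to 0.00896 without normalization. The log2 ratio of *Klf2* turned to -0.21 without control replicate 3 and was at most 1.91, without control replicate 1. *Lars2*, *Pigt*, *Grn*, *Slc4a7*, *Ptms* and *Derl3* passed the test without control 1 (log2 ratios of 2.65, 3.00, 1.99, 1.62, 1.67 and 1.69), and *Mt1* (-1.64) without control 3. The dimmer probes of *Slc4a7* were called lower, at -1.15 and -1.72. *Syt10*, *Rusc1* and *Fam110a* lost their call in 3, 8 and 9 settings. No paired analysis was possible because the control animals share no replicate number with another group and each ratio is within an array. Between 51.9% and 67.5% of liver spots were well above background, so that low transcripts give bounds or no value.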
